A study of Rattus norvegicus with 18 samples.

Results

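Rat pXEN cells grown as vesicles with CHIR99021 in serum were compared with pXEN cells in routine culture. The comparison used the 3 libraries titled as serum vesicles and the 3 titled as normal, 6 of the 18 libraries of the series, and covered every gene by its symbol. Of 28695 genes in the files, 11503 passed the filter on low counts and were tested. pXEN cells are stem cells of the extraembryonic endoderm lineage. Those used here came from blastocysts of the WKY rat strain, carry the cell type label rat XENP, and are labelled female.

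The serum vesicles were collected at passages 32, 35 and 49 and the normal cells at passages 37, 40 and 51. CHIR99021 is an inhibitor of the kinase GSK3. The growth protocol gives for vesicles 3 µM CHIR99021 and 10 ng/ml murine LIF in N2B27 medium, with no MEF feeder cells, PD0325901 or Y-27632, and does not say how the vesicles labelled with serum departed from it, so their dose and base medium are not known beyond the label. Vesicles without serum (passages 32, 35 and 42) and unsorted cells made vacuolated with 0.5 µM CHIR99021 in routine culture (passages 37, 41 and 51) served as further groups of 3 libraries each. The libraries of a group are described as independent preparations, and nothing says that they came from separate derivations, so p-values measure the spread between these samples. By their titles serum vesicles differed from normal cells in vesicle growth and CHIR99021 together, and the parts of these in a result cannot be told apart. Whether medium, LIF and serum also differed between these groups is not given in the sources used here.

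The extraembryonic endoderm arises beside the epiblast in the blastocyst and forms visceral endoderm, an absorptive epithelium with microvilli and lysosomes that lines the yolk sac, and parietal endoderm, a migratory cell type that lays down Reichert's membrane. GSK3 marks beta-catenin for destruction. When GSK3 is inhibited, as when a Wnt ligand binds its receptors, beta-catenin accumulates and acts with TCF/LEF factors on target genes, among them Axin2 and Lgr5.

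Libraries held 4050722 to 8685423 counts in serum vesicles and 4080629 to 5888544 in normal cells. A pair of genes with clone-style symbols took 51 to 60.8% of the counts in serum vesicles and 37.6 to 43.6% in normal cells, which left 1919117 to 3403469 counts for all other genes in serum vesicles and 2544688 to 3320217 in normal cells. Levels are in CPM, each count divided by its library's TMM-scaled size and put on the usual CPM scale. Replicates were closer in normal cells (r of log2 CPM 0.971 to 0.984 across genes) than in serum vesicles (0.937 to 0.958), where replicate 3 lay apart on the second principal component at 46.6, against 23.2 and 17.2 for the other serum vesicle libraries. The libraries are labelled female, and counts of genes that RefSeq places on the Y chromosome of GRCr8 were mixed. Usp9y, Eif2s3y and Kdm5d had counts in all libraries, at 51.1 to 136, 57.6 to 98.6 and 25.6 to 31.0 CPM in serum vesicles and 175 to 230, 112 to 131 and 10.2 to 15.6 CPM in normal cells. Uba1y was low, at 1.67 to 4.56 CPM in serum vesicles and 4.12 to 4.79 CPM in normal cells, Ddx3y lower still, at 0 to 1.06 CPM in serum vesicles and 0.302 to 0.896 CPM in normal cells, and Sry and Rbmy1j had no count in either group. Reads from X-linked homologues cannot be told apart from these, and the files use another build, rn6.

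Serum vesicles and normal cells differed widely. By edgeR's quasi-likelihood test, with all 18 libraries sharing one estimate of the spread and Benjamini-Hochberg adjustment over all tested genes, 6951 genes passed an adjusted p of 0.05, which is 60.4% of those tested. Of these 3642 were higher (31.7%) and 3309 lower (28.8%) in serum vesicles. Fitted changes were over 2-fold for 2410 higher and 1621 lower genes and over 8-fold for 586 higher and 154 lower genes, and in 6569 of the called genes the 3 serum vesicle libraries did not overlap the 3 normal ones. Lack of overlap in a gene named below is therefore the common case among called genes. Intervals and floors given for genes of few counts cover counting error only. A value with ± is a log2 fold change with its standard error. The median log2 fold change over all tested genes was 0.064. It moved to 0.18 when libraries were scaled by their counts outside the 2 most abundant genes.

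**Figure D1:**
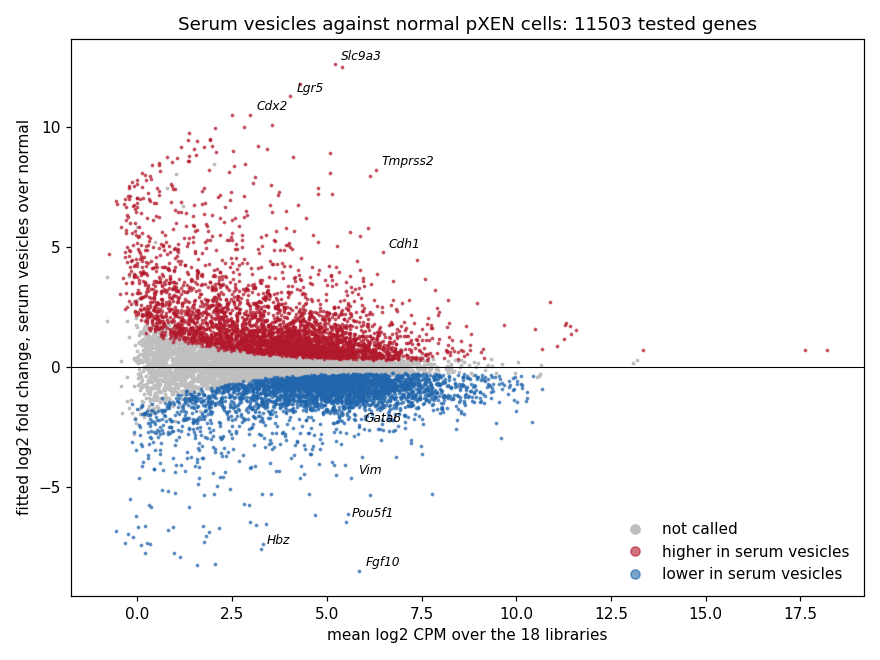
Fitted log2 fold change of serum vesicles over normal cells (y) against mean log2 CPM over the 18 libraries (x) for the 11503 tested genes. Red points are the 3642 genes called higher in serum vesicles, blue points the 3309 called lower and grey points those not called, with Slc9a3 and Lgr5 at the top, where normal cells had no count and the fitted value is no bound, and Fgf10 and Hbz at the bottom.

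The largest increases among well-expressed genes included transporters, receptors and a protease that normal cells hardly expressed. Slc9a3, the apical sodium-proton exchanger NHE3 of absorptive epithelia, had 117, 103 and 102 CPM in serum vesicles and no count in normal cells. It was therefore at least 624-fold higher in serum vesicles, taking 3 counts over the group as the floor for normal cells (adjusted p = 2.26e-11). Nrp1, a co-receptor for semaphorins and VEGF, had 79.8, 124 and 88.2 CPM in serum vesicles and none in normal cells, at least 577-fold. S100g, the calcium carrier calbindin-D9k, had 67.2, 42.4 and 74.8 CPM in serum vesicles and none in normal cells (at least 343-fold), and all 3 vesicle libraries stood well clear of normal cells for each of these genes. S1pr1, a receptor for sphingosine-1-phosphate, was at least 111-fold higher (20.8, 20.9 and 13.8 CPM in serum vesicles), and Kcne3, a potassium channel subunit, at least 62.1-fold (10.0, 15.4 and 3.91 CPM in serum vesicles). Both were without a count in normal cells.

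Tmprss2, a membrane serine protease, had 239, 279.9 and 259.7 CPM in serum vesicles and 0.538, 0.766 and 1.21 CPM in normal cells. The serum vesicle libraries were close to each other and far above every normal library, a log2 fold change of 8.21 ± 0.23 (adjusted p = 3.45e-19). Flvcr2, a choline and haem transporter family member, had 36.5, 43.2 and 39.4 CPM in serum vesicles and 1 count over the normal libraries, a ratio of 694 (95% counting interval 124 to 27442). With unstranded counts its log2 fold change was 4.95. Lypd8, a protein of the colonic epithelial surface, differed strongly between the vesicle libraries themselves, with 240.3, 7.92 and 25.8 CPM in serum vesicles and 0.179, 0 and 0.302 CPM in normal cells. Replicate 1 was far above the others, and the ratio to the 3 counts of the normal libraries was 561 (95% counting interval 192 to 2721), with an adjusted p of 0.0402. Its call was lost without serum vesicle replicate 1 (adjusted p = 0.152), without any 1 normal library (0.104 to 0.106), with passage as a covariate (0.0838) and with libraries thinned to equal counts (0.0762).

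Genes close to absent from serum vesicles included a growth factor, transcription factors and the pluripotency factor Oct4. Fgf10, a ligand of FGF receptors, had 0, 0.834 and 0 CPM in serum vesicles and 123, 114 and 139 CPM in normal cells. Only serum vesicle replicate 2 held any count, and the log2 fold change was -8.50 ± 0.43 (adjusted p = 5.73e-12), or a fitted -12.84 without that library. Pou5f1, which encodes Oct4 and is also expressed by extraembryonic endoderm lines of the rat, had 1.52, 1.53 and 0.691 CPM in serum vesicles and 102, 118 and 133 CPM in normal cells. No serum vesicle library came near the normal ones, and Pou5f1 fell by 6.46 ± 0.30 on the log2 scale (adjusted p = 3.31e-14). Hbz, an embryonic globin, had 2 counts over the serum vesicle libraries and 30.5, 16.9 and 26 CPM in normal cells, and was lower by a ratio of 224 (95% counting interval 61.6 to 1853). Lmo1, a LIM-domain transcription cofactor, had 3 counts over the serum vesicle libraries and 26.7, 36.4 and 27.5 CPM in normal cells, a ratio of 181 (95% counting interval 61.5 to 879).

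The other genes at the low end were 6 regulators and neuronal genes. Sfrp1, a secreted Wnt antagonist, changed by -6.62 ± 0.51 (adjusted p = 1e-10), or -10.71 without serum vesicle replicate 1, Bmper, a BMP-binding protein, by -6.56 ± 0.45 (adjusted p = 8.38e-12), and Tfec, a transcription factor of the MiT family, by -6.19 ± 0.60 (adjusted p = 4.04e-07), all as log2 fold changes. Dnmt3l, a cofactor of the de novo DNA methyltransferases, changed by -6.12 ± 0.63 (adjusted p = 1.19e-06). The neuronal genes Stmn2 and Sncb, a stathmin and a synuclein, changed by -5.34 ± 0.65 (adjusted p = 1.22e-05) and -5.32 ± 0.34 (adjusted p = 3.15e-12). For each of these genes every serum vesicle library was lower than every normal library, which was a condition of naming them.

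**Figure D2:**
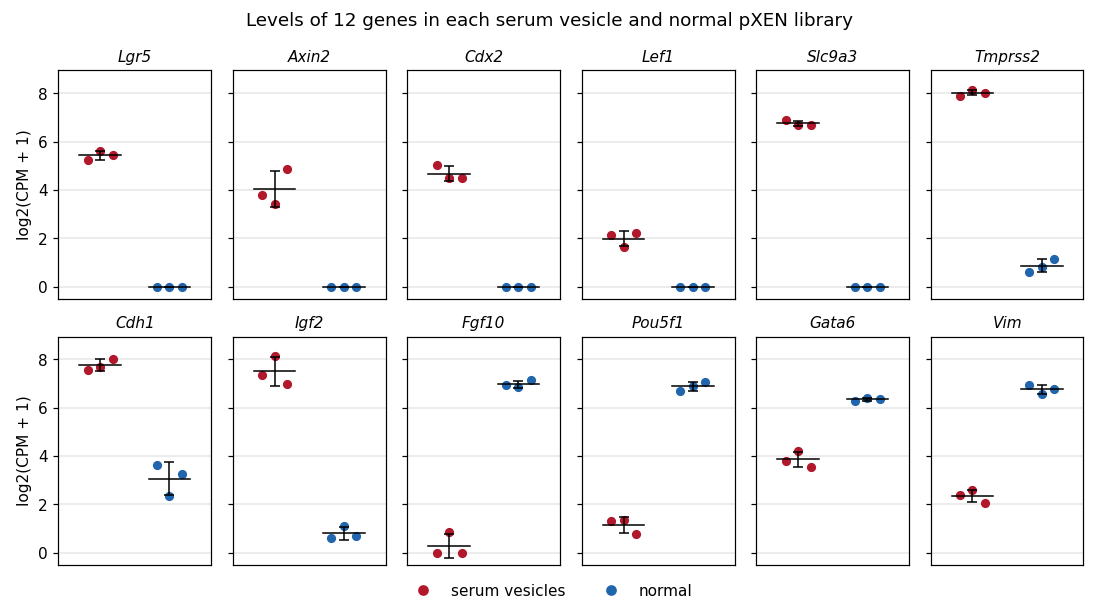
Level of 12 genes in each library as log2(CPM + 1), with serum vesicles left of normal cells, points for libraries, a line for the mean and a bar for the SD over 3 libraries. Levels are to be compared within a gene, since CPM is not adjusted for gene length: Lgr5, Axin2, Cdx2, Lef1 and Slc9a3 had no count in normal cells, and Fgf10 and Pou5f1 were near 0 in serum vesicles.

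Targets of beta-catenin and TCF/LEF that normal cells hardly expressed were present in serum vesicles. Of 24 listed Wnt targets and feedback genes 22 are in the files and 13 were tested, and of those 9 rose and 4 fell, with a median log2 fold change of 4.78 (4.09 with genes at 0 to 3 counts held at their bound or count ratio). A gene detected in 1 group alone enters the test through that group, so such counts describe the list and no more. Where a list's count moved by over 1.5 times under another setting or without 1 library, its range is given in parentheses after it. Axin2, a scaffold of the destruction complex that feeds back on the pathway, had 12.9, 9.73 and 28.3 CPM in serum vesicles and no count in normal cells. Replicate 3 was the highest of the vesicle libraries, and Axin2 was at least 89.1-fold higher (adjusted p = 4.89e-08). Lgr5, a receptor for R-spondins, had 37.1, 47.8 and 42.1 CPM in serum vesicles and none in normal cells, at least 247-fold (adjusted p = 3.24e-13). Lef1, a partner of beta-catenin on DNA, was low but present in every vesicle library, at 3.34, 2.08 and 3.68 CPM in serum vesicles, and without a count in normal cells (at least 17-fold, adjusted p = 4.52e-05, and a log2 fold change of 4.59 with unstranded counts).

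Cdx2, a homeobox gene of trophoblast, hindgut and posterior embryo, had 31.6, 21.5 and 21.6 CPM in serum vesicles and none in normal cells. All 3 vesicle libraries held it, and Cdx2 was at least 146-fold higher (adjusted p = 2.66e-11). Tcf7, which encodes TCF1, had 17, 17.7 and 13.1 CPM in serum vesicles and 0.359, 0 and 0.605 CPM in normal cells, a log2 fold change of 5.48 ± 0.50 (adjusted p = 1.3e-09). Rnf43, a ubiquitin ligase that removes Frizzled receptors, had 9.42, 7.92 and 14.5 CPM in serum vesicles and 0.717, 0.383 and 0 CPM in normal cells (4.85 ± 0.60, adjusted p = 2.37e-07). The listed members that fell were Sfrp1, Myc, Ccnd1 (-0.88 ± 0.33, adjusted p = 0.0255) and Bambi (-0.81 ± 0.34, adjusted p = 0.0438). The call on Ccnd1 was lost without serum vesicle replicate 1 (-0.54, adjusted p = 0.169) and without normal replicate 1 (-0.66, adjusted p = 0.13). Bambi was called in neither of these fits, nor without serum vesicle replicate 3 (-0.51, adjusted p = 0.2) or normal replicate 3 (-0.86, adjusted p = 0.0677), nor by DESeq2 (adjusted p = 0.0678), and was at -1.31 (adjusted p = 0.00416) without serum vesicle replicate 2. Myc, which many tissues raise on Wnt signalling, had 4.56, 2.08 and 2.30 CPM in serum vesicles and 12.4, 16.1 and 13.2 CPM in normal cells, a change of -2.19 ± 0.31 (adjusted p = 1.45e-06) without overlap of the groups. The count of listed targets that fell was 2 without serum vesicle replicate 1 or without normal replicate 1.

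The promoters of Cdx2, Tcf7, Axin2 and Rnf43 are shown. These are the called Wnt targets with the smallest adjusted p among those in the set of RefSeq promoters used here. Lgr5 and Sfrp1 were called but had no promoter in that set. Each sequence is the 250 bases before the gene's start, 5′ to 3′ on the gene's strand, from RefSeq on GRCr8. The letters ATCAAAG, a core TCF/LEF motif, were searched on both strands and a match is in capitals.
Cdx2, chr12:12762654-12762903, plus strand: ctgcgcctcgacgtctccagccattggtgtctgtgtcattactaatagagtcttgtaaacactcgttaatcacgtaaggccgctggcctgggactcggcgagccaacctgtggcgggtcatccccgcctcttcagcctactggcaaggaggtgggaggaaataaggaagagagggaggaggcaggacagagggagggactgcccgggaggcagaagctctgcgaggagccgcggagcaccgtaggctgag
Tcf7, chr10:36954280-36954529, minus strand: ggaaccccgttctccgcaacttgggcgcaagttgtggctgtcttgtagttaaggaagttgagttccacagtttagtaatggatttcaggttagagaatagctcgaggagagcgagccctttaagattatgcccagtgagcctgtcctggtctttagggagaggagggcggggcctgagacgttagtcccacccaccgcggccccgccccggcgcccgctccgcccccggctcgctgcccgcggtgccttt
Axin2, chr10:94398535-94398784, plus strand: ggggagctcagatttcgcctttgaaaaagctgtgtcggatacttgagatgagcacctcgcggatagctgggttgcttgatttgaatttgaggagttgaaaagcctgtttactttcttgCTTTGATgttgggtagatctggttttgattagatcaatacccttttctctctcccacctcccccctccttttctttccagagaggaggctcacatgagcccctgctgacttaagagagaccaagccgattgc
Rnf43, chr10:72963116-72963365, plus strand: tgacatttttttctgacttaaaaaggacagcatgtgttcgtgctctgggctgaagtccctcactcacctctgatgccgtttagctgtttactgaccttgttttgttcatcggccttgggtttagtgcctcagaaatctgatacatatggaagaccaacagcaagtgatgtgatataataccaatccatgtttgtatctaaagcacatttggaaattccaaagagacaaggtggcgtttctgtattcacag
The Axin2 window holds 1 match, 132 bases before the start. Of the 8 called Wnt targets with a promoter in that set, 1 had a match. The motif is in 3.18% of all 27457 promoters of the table and in 1.95% of the 8520 that belong to tested genes. A match is a description of these letters and not a binding site.

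Receptors and other parts of the pathway also moved. Of 31 listed pathway components 23 were tested, with 14 higher and 2 lower and a median of 0.77. Fzd5, a Frizzled receptor of visceral endoderm, had 31.9, 33.2 and 46.3 CPM in serum vesicles and 3.94, 2.68 and 4.08 CPM in normal cells (3.35 ± 0.29, adjusted p = 4.1e-10), and Lrp5, its co-receptor, had 60.5, 51.2 and 72.3 CPM in serum vesicles and 13.8, 12.1 and 12.1 CPM in normal cells (2.27 ± 0.20, adjusted p = 4.84e-10). Transcripts of Gsk3b, which encodes one of the kinases that CHIR99021 inhibits, stood at 61.8, 73.9 and 86.3 CPM in serum vesicles and 27.1, 19 and 26.9 CPM in normal cells (1.60 ± 0.17, adjusted p = 1.81e-08). All 3 genes were higher in every serum vesicle library than in any normal one. The ligand Wnt7b moved the other way, with 0.152, 0.556 and 0.230 CPM in serum vesicles and 17.7, 16.7 and 20.0 CPM in normal cells (-5.71 ± 0.45, adjusted p = 1e-10).

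The extraembryonic endoderm label was checked against its defining factors, which were present in serum vesicles but mostly reduced. Gata6, the earliest primitive endoderm factor, had 13.1, 17.4 and 10.8 CPM in serum vesicles and 75.5, 82.6 and 81.9 CPM in normal cells. The groups were far apart and Gata6 fell by 2.52 ± 0.16 on the log2 scale (adjusted p = 1.99e-12). Gata4 had 146, 181 and 138 CPM in serum vesicles and 393, 461 and 376 CPM in normal cells (-1.40 ± 0.15, adjusted p = 2.46e-08), and Sox17 272, 366 and 254 CPM in serum vesicles and 446, 606 and 504 CPM in normal cells (-0.80 ± 0.16, adjusted p = 0.000111). Dab2, an endocytic adaptor that marks the lineage, had 83.4, 23.2 and 19.8 CPM in serum vesicles and 201, 207 and 177 CPM in normal cells, and serum vesicle replicate 1 stood apart from the other 2 (-2.19 ± 0.50, adjusted p = 0.00218). Sox7 (5.01, 2.64 and 4.60 CPM in serum vesicles and 4.84, 2.68 and 3.93 CPM in normal cells, adjusted p = 0.857) and Pdgfra (279, 205 and 248 CPM in serum vesicles and 196, 189.5 and 204 CPM in normal cells, adjusted p = 0.0994) did not pass. Pdgfra passed as higher without serum vesicle replicate 2 (0.42, adjusted p = 0.0397) and with libraries scaled by their counts outside the 2 most abundant genes (0.43, adjusted p = 0.041). Of the 16 primitive endoderm factors, all tested, 5 were higher and 5 lower, shares near those over all tested genes (31.7% higher and 28.8% lower), with a median of -0.080. Among the higher were Cited1, a transcriptional coactivator (4.28 ± 0.33, adjusted p = 7.49e-11), and Foxa2, a forkhead factor of endoderm (0.96 ± 0.16, adjusted p = 1.82e-05).

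Visceral endoderm genes divided into members that rose, members that fell and 5 that did not pass. Of 28 listed, 17 were tested, 9 rose (8 to 15) and 3 fell, with a median of 0.68. Hnf4a, a nuclear receptor that drives the visceral endoderm programme, had 44.8, 43.8 and 34.1 CPM in serum vesicles and 8.07, 9.20 and 7.86 CPM in normal cells (2.30 ± 0.21, adjusted p = 1.25e-09). The endocytic receptor megalin, Lrp2, had 479.7, 321 and 726 CPM in serum vesicles and 49.1, 31.4 and 39 CPM in normal cells (3.67 ± 0.49, adjusted p = 2.66e-05). Its partner cubilin, Cubn, went the opposite way, with 15.5, 5.0 and 4.83 CPM in serum vesicles and 394, 255 and 382 CPM in normal cells (-5.31 ± 0.38, adjusted p = 1.46e-08). Amnionless, Amn, which brings cubilin to the surface, also fell, with 11.7, 5.84 and 8.29 CPM in serum vesicles and 52.2, 62.5 and 57.6 CPM in normal cells (-2.74 ± 0.21, adjusted p = 9.25e-11). Ihh, a hedgehog ligand of visceral endoderm, rose (2.51 ± 0.31, adjusted p = 1.99e-07), and Tdh, threonine dehydrogenase, fell (-2.75 ± 0.25, adjusted p = 2.38e-09). Secreted markers of mature visceral endoderm were at or near 0. Ttr had no count in either group, Afp had 13 counts and Apoa1 11 over the serum vesicle libraries and none over the normal ones, and these 3 were not tested. Apob had 3.95, 0.695 and 4.83 CPM in serum vesicles and 1 count over the normal libraries, a ratio of 50.0 (95% counting interval 8.58 to 2011). Of 11 listed markers of the anterior visceral endoderm 3 were tested. Fzd5 was the 1 that passed, as higher, and none was lower (0 to 1). Hesx1 and Hhex did not pass (adjusted p = 0.321 and 0.367), though without serum vesicle replicate 3 Hhex did, at -2.42 (adjusted p = 0.0209).

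Parietal endoderm genes were lower more often than higher, 8 against 3 of the 17 listed and tested, with a median of -0.44. Thbd, thrombomodulin, had 27.5, 29.2 and 22.3 CPM in serum vesicles and 265, 258 and 267 CPM in normal cells. That is 9.92-fold lower with tight replicates in both groups (adjusted p = 4.96e-15). Vim, the intermediate filament vimentin, had 4.25, 5.0 and 3.22 CPM in serum vesicles and 121, 94.3 and 109 CPM in normal cells and fell by 4.66 ± 0.24 on the log2 scale (adjusted p = 2.64e-13). Sparc, a matrix glycoprotein abundant in parietal endoderm, had 529, 640.2 and 523 CPM in serum vesicles and 1187, 1174 and 1178 CPM in normal cells (-1.06 ± 0.12, adjusted p = 4.18e-08). Plat, tissue plasminogen activator, rose, with 61.2, 35.9 and 61.5 CPM in serum vesicles and 2.87, 2.87 and 3.78 CPM in normal cells (4.03 ± 0.63, adjusted p = 9.91e-05), as did Fst, follistatin (3.37 ± 0.24, adjusted p = 2.66e-11).

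Pluripotency-associated genes other than Pou5f1 were also lower more often than higher. Of 24 listed 11 were tested, 7 fell and 2, Klf4 and Sall1, rose, with a median of -1.68. The epiblast markers Nanog and Sox2 had 2 and 1 counts over the serum vesicle libraries and none over the normal ones. The RNA-binding protein gene Lin28a had 25.7, 24 and 18 CPM in serum vesicles and 207, 200.1 and 209 CPM in normal cells (-3.17 ± 0.14, adjusted p = 5.86e-15), and Lin28b fell as well (-3.70 ± 0.41, adjusted p = 3.16e-08). Klf4 rose, with 69.3, 86.9 and 70.7 CPM in serum vesicles and 26.7, 36.8 and 30.5 CPM in normal cells (1.27 ± 0.17, adjusted p = 5.22e-07). The de novo DNA methyltransferase gene Dnmt3b had 3.95, 4.17 and 5.53 CPM in serum vesicles and 57.5, 43.9 and 45.5 CPM in normal cells. It fell by 3.45 ± 0.22 on the log2 scale (adjusted p = 2.07e-12), together with Dnmt3l, Dnmt3a, Tdg (-1.32 ± 0.13, adjusted p = 3.39e-09) and Mbd3 (-1.25 ± 0.13, adjusted p = 1.71e-08), while the maintenance enzyme gene Dnmt1 rose slightly, with 69.1, 60.2 and 82 CPM in serum vesicles and 51.1, 35.8 and 46.1 CPM in normal cells (0.66 ± 0.15, adjusted p = 0.000562). In all, 6 of the 16 DNA methylation genes were higher and 5 lower (median 0.30), near the shares over all tested genes (31.7% higher and 28.8% lower).

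Transcripts of a polarised epithelium were higher in serum vesicles. Of 38 junction and polarity genes 33 were tested, and 28 rose and none fell, with a median log2 fold change of 1.81. Cdh1, E-cadherin, had 189, 206 and 260.2 CPM in serum vesicles and 11.3, 4.02 and 8.62 CPM in normal cells. Each vesicle library was far above each normal one, a log2 fold change of 4.76 ± 0.23 (adjusted p = 2.77e-13). The claudin gene Cldn6 had 215, 171 and 161 CPM in serum vesicles and 18.6, 13.2 and 14.4 CPM in normal cells (3.57 ± 0.17, adjusted p = 2.14e-14), and Cldn7 had 53.3, 36.6 and 60.1 CPM in serum vesicles and 1.08, 1.53 and 1.51 CPM in normal cells (5.16 ± 0.30, adjusted p = 5.76e-13). Occludin, Ocln, had 139.7, 153 and 142 CPM in serum vesicles and 25.5, 25.3 and 26.9 CPM in normal cells (2.48 ± 0.15, adjusted p = 5.76e-13). These 3 genes of tight junction strands were higher in every vesicle library than in any normal one. The adhesion gene Epcam rose too, with 205, 146 and 219 CPM in serum vesicles and 31.9, 40.8 and 35.2 CPM in normal cells (2.40 ± 0.18, adjusted p = 1.02e-10).

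Keratin and desmosome genes followed, with 9 of 10 tested members higher and 1, Pkp3, lower (median 2.38). Krt8 had 764, 848 and 576 CPM in serum vesicles and 120.3, 134 and 95.6 CPM in normal cells (2.65 ± 0.18, adjusted p = 1.38e-11), and its partner Krt18 had 455, 539 and 397 CPM in serum vesicles and 80.1, 64.2 and 56.5 CPM in normal cells (2.79 ± 0.18, adjusted p = 4.83e-12). Desmocollin, Dsc2, rose by 2.25 ± 0.18 (adjusted p = 1.01e-10), and periplakin, Ppl, by 5.47 ± 0.48 (adjusted p = 8.02e-10), as log2 fold changes. Of 18 mesenchymal genes 7 were tested, Vim fell and Tagln rose, and the others did not pass. Tagln, an actin-binding protein of smooth muscle, had 5.47, 6.95 and 4.60 CPM in serum vesicles and 3.41, 1.92 and 0.907 CPM in normal cells (1.49 ± 0.49, adjusted p = 0.0126), and its call was lost without normal replicate 3 (adjusted p = 0.0824) and with thinned libraries (0.0711). Zeb1 (0.71, adjusted p = 0.248) and Mmp2 (-1.99, adjusted p = 0.0709) did not pass, and Cdh2, N-cadherin, with 5 counts over the serum vesicle libraries and 7 over the normal ones, was not tested.

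Genes of the apical surface also rose. Of 30 microvillus and apical genes 23 were tested, 15 rose and 2 fell (1 to 2), Pdzk1 and Mme, with a median of 2.95 (2.82 with bounds). Neither fall held throughout: Pdzk1 (-1.13 ± 0.28, adjusted p = 0.00105) was at 0.19 with unstranded counts (adjusted p = 0.42), and Mme (-0.62 ± 0.22, adjusted p = 0.0202) was no longer called without serum vesicle replicate 2 (-0.44, adjusted p = 0.107). Eps8, which caps and bundles actin in microvilli, had 13.1, 5.56 and 10.1 CPM in serum vesicles and 2 counts over the normal libraries, a ratio of 81.7 (95% counting interval 22.3 to 680.0). Its relative Eps8l2 had 73.4, 59.1 and 70.7 CPM in serum vesicles and 5.56, 6.90 and 4.23 CPM in normal cells (3.62 ± 0.28, adjusted p = 6.48e-10), and Baiap2l1, a membrane-bending actin regulator, 44.1, 50.5 and 65.4 CPM in serum vesicles and 8.25, 5.37 and 9.37 CPM in normal cells (2.78 ± 0.22, adjusted p = 1.01e-10). Podocalyxin, Podxl, a coat protein of free surfaces, was already high in normal cells, with 482, 424 and 544 CPM in serum vesicles and 230.3, 229 and 228 CPM in normal cells (1.08 ± 0.13, adjusted p = 8.74e-08). Vil1, villin, had 21.3, 11.1 and 7.37 CPM in serum vesicles and 2 counts over the normal libraries.

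Ion and water transport genes shifted in the same comparison. Of 34 listed 21 were tested, 14 rose and 3 fell (median 1.68). Car2, carbonic anhydrase 2, had 32.5, 24 and 21 CPM in serum vesicles and 0.538, 0.192 and 0.605 CPM in normal cells (5.77 ± 0.36, adjusted p = 2.22e-12). The sodium pump subunit Atp1b1 had 312, 249 and 332 CPM in serum vesicles and 60.2, 63.4 and 75.4 CPM in normal cells (2.16 ± 0.16, adjusted p = 2.65e-11), and its regulator Fxyd3 83.1, 112 and 76 CPM in serum vesicles and 16.3, 15.7 and 16.3 CPM in normal cells (2.49 ± 0.17, adjusted p = 5.9e-12). The water channel Aqp8 had 122, 174 and 73.4 CPM in serum vesicles and 9.86, 9.77 and 14.4 CPM in normal cells (3.44 ± 0.41, adjusted p = 4.24e-06). Slc4a4, a sodium bicarbonate cotransporter, rose as well (6.75 ± 0.59, adjusted p = 2.31e-08), whereas Car12 fell (-4.48 ± 0.58, adjusted p = 7.96e-06). Serum vesicles and normal cells did not overlap for any of these 6 genes, which was also so for 6569 of the 6951 called genes.

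Matrix and adhesion genes were found on both sides. Of 21 tested basement membrane genes 6 rose and 7 (7 to 11) fell, shares near those over all tested genes (31.7% higher and 28.8% lower, median -0.31), and of 12 integrin genes 6 rose and 4 fell (median 0.30). Serpinh1, the collagen chaperone HSP47, had 446, 502 and 377 CPM in serum vesicles and 2083, 2361 and 2125 CPM in normal cells (-2.31 ± 0.15, adjusted p = 2.22e-12). Nid2, a linker of laminin and collagen, fell (-3.44 ± 0.35, adjusted p = 6.54e-09). Frem2, an extracellular matrix protein of basement membranes, rose, with 17.3, 13.9 and 32 CPM in serum vesicles and 0.538, 0 and 0.907 CPM in normal cells (5.30 ± 0.53, adjusted p = 1.69e-08). Among the integrin genes, Itga2 had 8.81, 7.37 and 5.53 CPM in serum vesicles and 61.1, 75.1 and 72 CPM in normal cells (-3.23 ± 0.21, adjusted p = 2.86e-12), and Itga4 had 2 counts over the serum vesicle libraries and 10.2, 13.4 and 17.4 CPM in normal cells. In the other direction Itga3 rose by 2.35 ± 0.23 (adjusted p = 5.93e-09) and Itgb4 by 4.91 ± 0.62 (adjusted p = 9.61e-07), both on the log2 scale. With unstranded counts Itgb4 rose by far less (adjusted p = 1.08e-05).

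Proteases of the cell surface and their inhibitors changed beside Tmprss2. Of 18 tested serine protease and coagulation genes 12 rose and 2, Thbd and F3, fell (median 1.27). Prss8, prostasin, had 39.1, 43.4 and 47.7 CPM in serum vesicles and 4.30, 4.02 and 3.48 CPM in normal cells (3.46 ± 0.24, adjusted p = 1.31e-11), and its inhibitor Spint1 118, 107 and 116 CPM in serum vesicles and 40.0, 41.4 and 43.2 CPM in normal cells (1.45 ± 0.15, adjusted p = 9.5e-09). F3, tissue factor, fell to 109, 109 and 96.9 CPM in serum vesicles, against 236, 268 and 262 CPM in normal cells (-1.28 ± 0.16, adjusted p = 1.9e-07). Of 14 metalloproteases and inhibitors 5 rose and 2 fell (median 0.17), with 3 higher without serum vesicle replicate 2. Over all tested genes 31.7% were higher and 28.8% lower. The membrane protease gene Mmp15 had 59.7, 65.7 and 87.9 CPM in serum vesicles and 0.538, 0.383 and 0.454 CPM in normal cells (7.22 ± 0.36, adjusted p = 6.5e-14). Timp3 and Adam9 rose (3.68 ± 0.37, adjusted p = 5.2e-07, and 1.68 ± 0.22, adjusted p = 5.14e-07), and Timp2 fell (-1.38 ± 0.11, adjusted p = 6.56e-11).

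Lysosome genes rose more often than they fell, and those of the proton pump had no common direction. Of 41 lysosome genes 40 were tested, 25 rose and 4 fell (median 0.66). Summed over the 41 genes, levels overlapped, at 4067 to 4834 CPM in serum vesicles and 4025 to 4163 CPM in normal cells. Cathepsin B, Ctsb, had 382, 285 and 332 CPM in serum vesicles and 13.8, 13.2 and 18 CPM in normal cells. Every vesicle library was far above the normal ones, a log2 fold change of 4.46 ± 0.16 (adjusted p = 1.68e-16). The glycosidase gene Glb1 had 106, 105 and 80.8 CPM in serum vesicles and 14.2, 14 and 16 CPM in normal cells (2.72 ± 0.16, adjusted p = 3.99e-13). Asah1, acid ceramidase, rose by 1.78 ± 0.14 (adjusted p = 8.09e-11) and Tpp1, a lysosomal peptidase, by 1.92 ± 0.15 (adjusted p = 9.37e-11). Those that fell were Lamp1, Ctsl, Ctsz and Tfec. Of 17 V-ATPase genes 4 rose and 5 fell (median -0.19), against 31.7% higher and 28.8% lower over all tested genes. Atp6v0c and Atp6v0a1 were higher (0.69 ± 0.13, adjusted p = 6.4e-05, and 0.61 ± 0.14, adjusted p = 0.000504) and Atp6v0b and Atp6v1b2 lower (-0.90 ± 0.13, adjusted p = 1.37e-06, and -0.71 ± 0.14, adjusted p = 0.000124). V-ATPase genes called lower numbered 2 without serum vesicle replicate 3 and 3 without normal replicate 3. Among 35 tested endocytosis and trafficking genes 16 rose and 10 fell (median 0.45). The recycling GTPase gene Rab11a had 57.7, 57.3 and 53 CPM in serum vesicles and 24.4, 22 and 24.9 CPM in normal cells (1.23 ± 0.14, adjusted p = 3.11e-08).

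**Figure D3:**
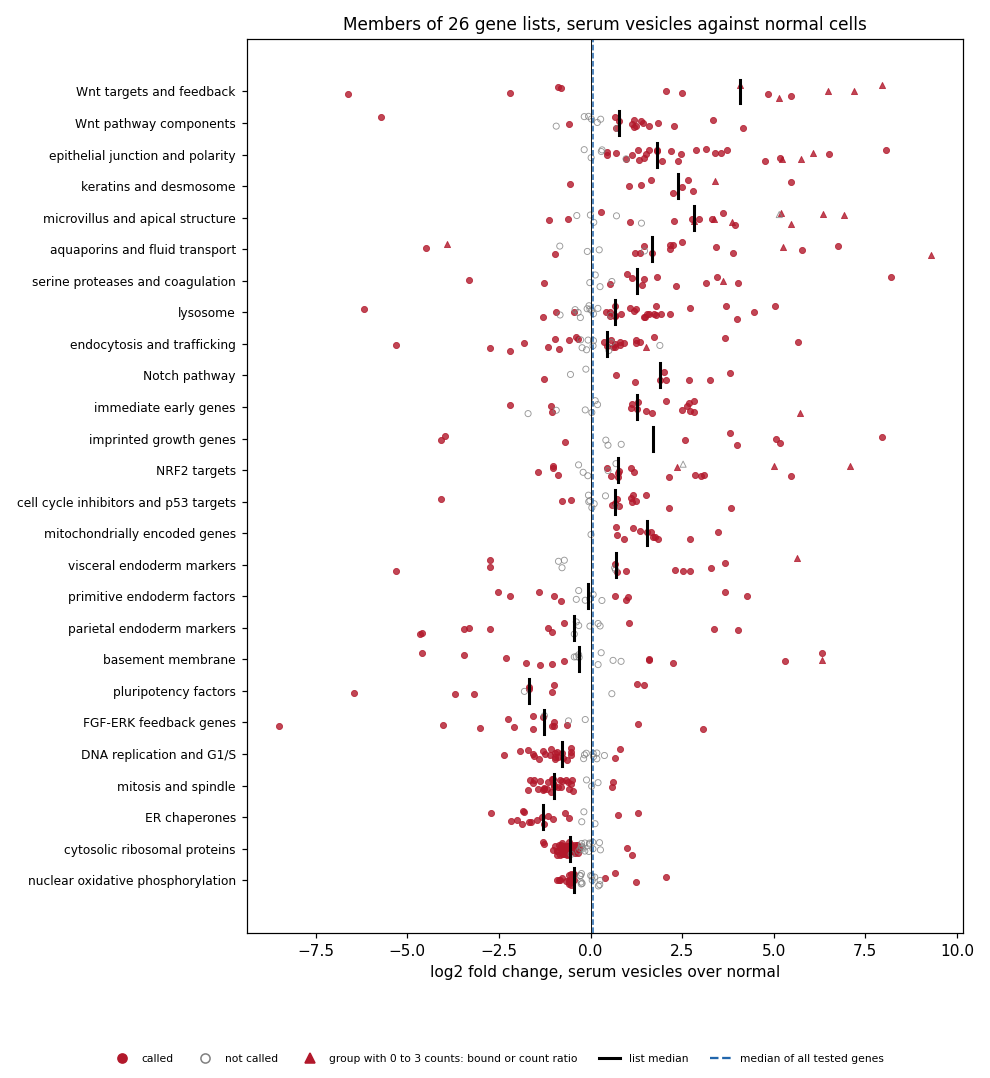
Log2 fold change of serum vesicles over normal cells (x) for the tested members of 26 gene lists (rows). Filled points passed an adjusted p of 0.05 and open points did not, triangles are genes with 0 to 3 counts in a group, drawn at their bound or count ratio, black bars are list medians and the dashed line is the median of all tested genes, 0.064: junction, microvillus and Wnt target lists lie to the right, and ER chaperone, mitosis and FGF-ERK lists to the left.

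FGF and ERK feedback genes fell in serum vesicles. Of 17 tested 12 fell and 2 rose, with a median of -1.26. The receptor gene Fgfr3 had 4.56, 1.67 and 5.07 CPM in serum vesicles and 50.2, 72.8 and 55.6 CPM in normal cells. No vesicle library came near the normal ones, and Fgfr3 fell by 4.04 ± 0.24 on the log2 scale (adjusted p = 8.85e-13). The feedback inhibitor gene Spry2 had 13.5, 14 and 15.4 CPM in serum vesicles and 39.8, 42.9 and 43.8 CPM in normal cells (-1.56 ± 0.16, adjusted p = 5.78e-09). Il17rd, another inhibitor of FGF signalling, rose instead, with 18.1, 26.5 and 30.6 CPM in serum vesicles and 2.87, 2.87 and 3.18 CPM in normal cells (3.06 ± 0.31, adjusted p = 6.11e-09). Immediate early genes mostly rose, 14 of 23 tested with 3 (2 to 5) lower (median 1.27). Klf10, Ier3, Klf6 and Fosl2 were the 4 of them with the smallest adjusted p, at log2 fold changes of 2.64, 2.69, 1.68 and 2.72.

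Genes of the TGF-beta family and of Notch were mixed or higher. Of 17 tested BMP and Id genes 8 rose and 5 fell (median 0.56). Bmp4, a ligand, had 20.7, 26.4 and 25.8 CPM in serum vesicles and 0, 0.958 and 0.454 CPM in normal cells (5.67 ± 0.44, adjusted p = 1.34e-10), and its receptor gene Bmpr2 rose (1.41 ± 0.15, adjusted p = 1.48e-08). Targets that BMP signalling commonly raises were divided. The 5 members that fell were Id1, Id3, Id4, Msx2 and Bambi, the last within the limits given above. Id1 had 15.3, 10.7 and 10.8 CPM in serum vesicles and 52.7, 77.4 and 61.4 CPM in normal cells (-2.37 ± 0.24, adjusted p = 2.15e-08), and Id4 changed by -1.73 ± 0.19 (adjusted p = 3.06e-08). Id2 and Smad6, which BMP signalling also commonly raises, were higher, Id2 with 22, 8.48 and 15.2 CPM in serum vesicles and 4.48, 5.75 and 4.84 CPM in normal cells (1.60 ± 0.37, adjusted p = 0.00108) and Smad6 with 8.36, 3.48 and 7.60 CPM in serum vesicles and 2.87, 0.766 and 0.907 CPM in normal cells (2.08 ± 0.46, adjusted p = 0.000432). Of 12 Nodal and activin genes 6 rose and 1 (1 to 2), Smad2 (-0.68 ± 0.13, adjusted p = 0.000116), fell (median 0.59), with the signal transducer Smad3 at 11.2, 4.87 and 19.3 CPM in serum vesicles and 1.79, 0.766 and 1.66 CPM in normal cells (3.00 ± 0.49, adjusted p = 1.3e-05). Of 11 Notch pathway genes 8 rose and 1, Rfng (-1.27 ± 0.17, adjusted p = 5.64e-07), fell (median 1.90). The receptor gene Notch3 had 40.9, 39.9 and 42.4 CPM in serum vesicles and 1.79, 3.07 and 3.78 CPM in normal cells (3.81 ± 0.28, adjusted p = 3.02e-11), Notch2 rose by 2.07 ± 0.31 (adjusted p = 1.21e-05), and the ligand gene Dll1 by 3.27 ± 0.56 (adjusted p = 2.05e-05). Of 19 Hippo pathway targets and factors 5 rose and 8 fell (median -0.27), against 31.7% higher and 28.8% lower over all tested genes. Tead4 and Tead2, DNA-binding partners of YAP, fell (-1.38 ± 0.16, adjusted p = 5e-08, and -1.66 ± 0.20, adjusted p = 1.7e-07), and Frmd6 rose (1.28 ± 0.16, adjusted p = 2.65e-07).

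Imprinted growth genes moved far in both directions. Of 12 tested 6 rose and 3 fell (median 1.71). Igf2, the fetal growth factor, had 164, 281 and 126 CPM in serum vesicles and 0.538, 1.15 and 0.605 CPM in normal cells. All 3 vesicle libraries were high and all 3 normal ones near 0, a log2 fold change of 7.96 ± 0.77 (adjusted p = 1.17e-06). Its clearance receptor gene Igf2r had 124, 37.3 and 112 CPM in serum vesicles and 6.99, 4.02 and 5.75 CPM in normal cells (4.01 ± 0.73, adjusted p = 0.000401), and Ppp1r9a rose by 5.05 ± 0.41 (adjusted p = 1.25e-09). Grb10, Slc22a18 and Sgce also rose, and the members that fell were Cdkn1c, Phlda2 and Ndn. Cdkn1c, p57, had 6.23, 6.39 and 7.83 CPM in serum vesicles and 106, 132 and 104 CPM in normal cells (-4.08 ± 0.40, adjusted p = 3.3e-07), and Phlda2 had 2.58, 5.42 and 3.68 CPM in serum vesicles and 62, 62.9 and 63 CPM in normal cells (-3.98 ± 0.26, adjusted p = 1.06e-11).

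Proliferation genes were lower in serum vesicles. Of 31 tested replication and G1/S genes 21 fell and 2 rose (median -0.78), and of 32 mitosis genes 27 fell and 2 (1 to 2), Top2a and Anln, rose (median -1.0). The call on Anln was lost without serum vesicle replicate 3 (adjusted p = 0.146) and without normal replicate 2 (0.103). Ccne1, cyclin E1, had 10.9, 11.1 and 18.4 CPM in serum vesicles and 66.3, 71.3 and 64.6 CPM in normal cells (-2.35 ± 0.18, adjusted p = 6.45e-11), and the ribonucleotide reductase gene Rrm2 115, 94.4 and 82 CPM in serum vesicles and 349, 401 and 366 CPM in normal cells (-1.94 ± 0.16, adjusted p = 1.48e-10). Rrm1 and the licensing factor gene Cdc6 fell too (-1.41 ± 0.12, adjusted p = 2.21e-10, and -1.55 ± 0.15, adjusted p = 2.02e-09). The mitotic cyclin gene Ccnb1 had 63.2, 73.3 and 52.5 CPM in serum vesicles and 197, 215 and 205 CPM in normal cells (-1.70 ± 0.15, adjusted p = 9.63e-10), Ccna2 changed by -1.65 ± 0.15 (adjusted p = 1e-09), and the checkpoint kinase genes Ttk and Bub1 by -1.58 ± 0.14 (adjusted p = 7.65e-10) and -1.54 ± 0.14 (adjusted p = 1.22e-09). None of these 8 genes overlapped between the groups, which was also so for 6569 of the 6951 called genes. Of 21 cell cycle inhibitors and p53 targets 11 rose and 3 fell (median 0.67), with Cdkn2b at 8.97, 7.23 and 6.91 CPM in serum vesicles and 0.359, 0.958 and 0.302 CPM in normal cells (3.85 ± 0.54, adjusted p = 1.39e-06, or 2.38 with unstranded counts) and smaller changes of Btg2 (1.13 ± 0.14, adjusted p = 2.85e-07) and Cdkn1b (0.73 ± 0.16, adjusted p = 0.000393). In bulk samples fewer cycling cells and less of these transcripts in each cell cannot be told apart.

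Chaperones of the endoplasmic reticulum fell together. Of 20 listed, all tested, 15 fell and 2 rose, with a median of -1.29. Hspa5, the chaperone BiP, had 462, 367 and 292 CPM in serum vesicles and 1329.7, 1372 and 1381 CPM in normal cells. Even the highest vesicle library stayed far below the normal ones (-1.86 ± 0.14, adjusted p = 8.16e-11). The disulfide isomerase gene Pdia4 had 58.7, 45.9 and 41 CPM in serum vesicles and 195, 196 and 198 CPM in normal cells (-2.01 ± 0.13, adjusted p = 5.73e-12), and Dnajb11 and Hyou1 changed by -2.18 ± 0.15 (adjusted p = 1.54e-11) and -1.61 ± 0.15 (adjusted p = 1.3e-09). Of 21 genes of the integrated stress response 7 rose and 10 fell (median -0.41), with 4 higher without serum vesicle replicate 1 or without normal replicate 2 or 3. Those that fell include the serine metabolism genes Phgdh, with 37.8, 32.4 and 24.4 CPM in serum vesicles and 138, 159 and 146 CPM in normal cells (-2.22 ± 0.19, adjusted p = 1.81e-09), and Shmt2 (-2.31 ± 0.13, adjusted p = 3.99e-13), and the amino acid transporter Slc7a1 (-1.28 ± 0.15, adjusted p = 1.33e-07). Vldlr, a lipoprotein receptor, had 7.45, 3.06 and 4.37 CPM in serum vesicles and no count in normal cells. Of 25 NRF2 targets 15 rose and 4 fell (median 0.75). Fth1, ferritin heavy chain, had 607, 329 and 707 CPM in serum vesicles and 116, 139.5 and 117 CPM in normal cells (2.14 ± 0.21, adjusted p = 2.4e-08), Osgin1 and the exporter gene Abcc4 rose (5.46 ± 0.57, adjusted p = 1.35e-08, and 3.02 ± 0.32, adjusted p = 5.52e-08), and the peroxiredoxin gene Prdx1 fell (-1.45 ± 0.14, adjusted p = 2.02e-09).

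Transcripts of the mitochondrial genome rose while nuclear genes of the same respiratory complexes were more often lower. Of 13 tested mitochondrially encoded genes 12 rose and none fell (median 1.53), and they made up 7.91 to 9.31% of the counts outside the dominant pair in serum vesicles and 3.13 to 3.38% in normal cells. Mt-nd2 had 3377, 3235 and 4285 CPM in serum vesicles and 582, 534 and 545 CPM in normal cells (2.71 ± 0.24, adjusted p = 1.44e-08), and Mt-cyb 3907, 4002 and 4583 CPM in serum vesicles and 1309, 1215 and 1299 CPM in normal cells (1.71 ± 0.16, adjusted p = 1.91e-09). Mt-nd4 and Mt-co3 changed by 3.48 ± 0.28 (adjusted p = 2.03e-10) and 1.53 ± 0.16 (adjusted p = 8.38e-09). Whether RNA quality has a part in this rise was not tested. Of 35 nuclear genes of oxidative phosphorylation 18 fell and 4 rose (median -0.45). Ndufa10, Uqcrc1 and Ndufa5 fell (-0.87 ± 0.14, adjusted p = 7.86e-06, -0.78 ± 0.13, adjusted p = 1.13e-05, and -0.93 ± 0.17, adjusted p = 6.06e-05), and Uqcrb rose, with 18.7, 20.2 and 26.5 CPM in serum vesicles and 5.38, 5.37 and 4.69 CPM in normal cells (2.07 ± 0.25, adjusted p = 1.06e-07).

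Cytosolic ribosomal protein genes fell by small amounts, 41 of 59 tested with 2 (2 to 4) higher, among them Rps28 (median -0.56). Rps2 had 762, 693 and 580.2 CPM in serum vesicles and 1632, 1721 and 1681 CPM in normal cells (-1.31 ± 0.12, adjusted p = 2.46e-09), and Rpl10a 282, 278 and 217 CPM in serum vesicles and 548, 514 and 508 CPM in normal cells (-1.01 ± 0.12, adjusted p = 1.01e-07). Rps28 had 241, 224 and 232 CPM in serum vesicles and 122, 93.5 and 103 CPM in normal cells (1.13 ± 0.13, adjusted p = 8.75e-08). Ribosomal protein genes have many processed pseudogenes, and how the authors' counting divided shared reads is not given in the sources used here.

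Energy and lipid genes showed no common direction, with several lists near the shares over all tested genes (31.7% higher and 28.8% lower). Of 29 hypoxia and glycolysis genes 13 rose and 7 fell (median 0.15). Ndrg1, a stress and hypoxia gene, had 54.7, 48.9 and 53.6 CPM in serum vesicles and 0.896, 1.34 and 1.21 CPM in normal cells (5.49 ± 0.30, adjusted p = 1.65e-13), and Vegfa 79.2, 90.9 and 121 CPM in serum vesicles and 16.5, 14.2 and 11.5 CPM in normal cells (2.79 ± 0.20, adjusted p = 2.4e-11). Aldoa and Ddit4 rose (2.29 ± 0.14, adjusted p = 2.12e-12, and 2.81 ± 0.23, adjusted p = 1.69e-10), whereas Ldha, lactate dehydrogenase A, had 488, 465 and 260.2 CPM in serum vesicles and 1087, 1151 and 1155 CPM in normal cells (-1.48 ± 0.16, adjusted p = 1.82e-08). Of 26 cholesterol synthesis genes 6 rose and 8 (5 to 9) fell (median -0.17), with Fdps and Stard4 lower (-1.23 ± 0.10, adjusted p = 4.05e-10, and -1.41 ± 0.14, adjusted p = 6.35e-09) and Tm7sf2 higher (1.80 ± 0.23, adjusted p = 3.1e-07). Of 14 fatty acid synthesis genes 4 rose and 4 (2 to 4) fell (median 0.018). Acss2, which makes acetyl-CoA from acetate, had 137, 141 and 156 CPM in serum vesicles and 26, 26.6 and 28.1 CPM in normal cells (2.42 ± 0.14, adjusted p = 2.72e-13), Scd, stearoyl-CoA desaturase, 13.7, 18.3 and 7.37 CPM in serum vesicles and 112, 116 and 113 CPM in normal cells (-3.07 ± 0.25, adjusted p = 2.38e-09), and Fasn and Elovl5 rose (0.91 ± 0.17, adjusted p = 9.87e-05, and 1.70 ± 0.27, adjusted p = 9.02e-06). Of 18 retinoid and lipid handling genes 6 rose and 6 fell (median -0.26). Aldh1a1, a retinoic acid synthesis enzyme, rose (4.49 ± 0.49, adjusted p = 8.94e-08), and Fabp3, Plin3 and Dgat1 fell (-1.49 ± 0.17, adjusted p = 4.67e-08, -1.24 ± 0.16, adjusted p = 5.19e-07, and -1.31 ± 0.18, adjusted p = 1.07e-06).

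Markers of other cell types were examined, since feeder cells or differentiated cells could be present. The 20 feeder fibroblast markers summed to 217 to 251 CPM in serum vesicles and 135 to 143 CPM in normal cells, with Dcn, Lum and Postn at 0 in both. Of 6 tested 3 rose and none fell (median 0.48): Fbln1 (1.58 ± 0.16, adjusted p = 5.68e-09), Mfap5 (0.47 ± 0.16, adjusted p = 0.0153) and Tagln. Col1a1 did not pass (1.98, 10.3 and 4.83 CPM in serum vesicles and 4.12, 8.05 and 0.454 CPM in normal cells, adjusted p = 0.674). The call on Tagln was lost without normal replicate 3 (adjusted p = 0.0824) and with thinned libraries (0.0711), and that on Mfap5 without serum vesicle replicate 3 (adjusted p = 0.052) and without normal replicate 2 (0.0673). The 20 gut endoderm markers summed to 72.1 to 114 CPM in serum vesicles and 16 to 16.9 CPM in normal cells, and of 8 tested 5 rose (3 to 5) and 1 fell (1 to 2, median 3.52). Besides Cdx2, Sox9 had 31.9, 41.3 and 55.5 CPM in serum vesicles and 8.25, 7.28 and 8.16 CPM in normal cells (2.43 ± 0.28, adjusted p = 9.94e-08), Prox1 rose (4.61 ± 0.92, adjusted p = 0.000187), and Pyy, a gut hormone, had no count in serum vesicles and was at least 22.5-fold lower.

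The 15 trophoblast markers in the files summed to 108 to 115 CPM in serum vesicles and 11.3 to 13.4 CPM in normal cells, and of 4 tested 2 rose and 2 (1 to 3) fell. Gata2 carried most of this, with 74.6, 92.4 and 82.4 CPM in serum vesicles and 0.538, 0.575 and 0.302 CPM in normal cells, a log2 fold change of 7.45 ± 0.32 (adjusted p = 2.36e-15). The defining trophoblast genes were at or near 0 in serum vesicles and normal cells: Elf5 had 0 and 3 counts, Tpbpa 2 and 0, and Prl3d1 none in either. Eomes fell (-3.35 ± 0.38, adjusted p = 5.34e-08), and Plac1 had no count in serum vesicles and 2.15, 3.26 and 3.18 CPM in normal cells. Eomes was also the 1 tested gene of the mesoderm and streak markers, whose defining members Mixl1 and Mesp1 were at 0 in both groups. Summed neural markers were at 34.1 to 50.6 CPM in serum vesicles and 216 to 218 CPM in normal cells, and of 9 tested 6 fell and 1 rose (1 to 2, median -2.22). Dcx, doublecortin, rose, with 31, 24.6 and 18.2 CPM in serum vesicles and 0.717, 1.15 and 0.605 CPM in normal cells (4.91 ± 0.47, adjusted p = 3.47e-09), while Tubb3 and Elavl3 fell (-2.96 ± 0.40, adjusted p = 7.61e-07, and -2.33 ± 0.53, adjusted p = 0.000551) with Stmn2. Blood markers summed to 2.64 to 7.90 CPM in serum vesicles and 8.42 to 11.6 CPM in normal cells with Ptprc at 0, and Klf1 fell (-3.73 ± 0.40, adjusted p = 2.11e-08) while Runx1 and Cd14 did not pass (adjusted p = 0.425 and 0.719). Endothelial markers summed to 38.5 to 58.2 CPM in serum vesicles and 69.9 to 77.3 CPM in normal cells. Tek fell (-1.84 ± 0.21, adjusted p = 8.91e-08) and Flt1 rose (1.30 ± 0.22, adjusted p = 2.06e-05), Cdh5 passed narrowly (-1.38 ± 0.58, adjusted p = 0.0438), and Vwf did not pass (adjusted p = 0.146, or 0.0416 at 1.74 without serum vesicle replicate 2). The Cdh5 call was lost without serum vesicle replicate 1 (adjusted p = 0.187) and without any 1 normal library (0.0576 to 0.11), and with 5 other settings at 0.0507 to 0.121, and Cdh5 was at -2.22 without serum vesicle replicate 2.

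Serum vesicles were then set directly against vesicles grown without serum, a contrast from which normal cells drop out. By their titles these groups differed in serum. Whether CHIR99021 dose, LIF or base medium also differed is not given, and the parts of these cannot be told apart. From here on, "with serum" names the serum vesicle group and no cause. In this comparison 2805 genes passed by edgeR's quasi-likelihood test, 24.4% of those tested, with 1323 higher (11.5%) and 1482 lower (12.9%) in serum vesicles, and 913 of them over 2-fold. The split depended on scaling: with libraries scaled by their counts outside the 2 most abundant genes, 2110 were higher and 792 lower, 72.7% higher against 47.2%, and the median log2 fold change was 0.16 against -0.017. Without serum vesicle replicate 3 the count was 1726, and when the spread was estimated from these 6 libraries alone it was 1223. Leaving out serum vesicle replicate 3 alone took the higher NRF2 targets to 5, the lower replication, mitosis and parietal endoderm genes to 6, 6 and 5, and the higher junction and glycolysis genes to 1 and 1. Leaving out serum-free vesicle replicate 3 took the higher NRF2 targets to 5 and the lower replication genes to 7, and leaving out serum-free vesicle replicate 2 took the lower oxidative phosphorylation genes to 7 and the higher fibroblast markers to 1.

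Nearly every ribosomal protein gene was lower with serum. Of 59 tested 57 fell and none rose, 52 to 58 lower over the settings, with a median of -0.81. Rpl3 had 862, 862 and 622 CPM in serum vesicles and 1428, 1428 and 1372 CPM in serum-free vesicles, a log2 fold change of -0.85 ± 0.13 (adjusted p = 4.7e-05). Rpl10a had 282, 278 and 217 CPM in serum vesicles and 434, 495 and 456 CPM in serum-free vesicles (-0.83 ± 0.12, adjusted p = 3.3e-05), and no library of one group reached the other for either gene. Nuclear genes of oxidative phosphorylation fell in 13 of 35 cases (6 to 16) with 1 higher (0 to 1), while of the 13 mitochondrially encoded genes none was called in either direction (0 to 1 higher and 0 to 3 lower, median -0.10). Glycolysis genes were lower in 9 of 29 cases and higher in 3 (1 to 4), with Ldha at 488, 465 and 260.2 CPM in serum vesicles and 831, 875 and 839.9 CPM in serum-free vesicles (-1.07 ± 0.16, adjusted p = 3.83e-05). Here serum vesicle replicate 3 was the lowest library.

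Sterol and fatty acid desaturation genes were lower with serum. Of 26 cholesterol synthesis genes 12 fell (5 to 14 over the settings) and none rose (0 to 1), with a median of -0.40. Fdps, the farnesyl diphosphate synthase gene, had 164, 149 and 145 CPM in serum vesicles and 264, 272 and 276 CPM in serum-free vesicles (-0.83 ± 0.10, adjusted p = 6.42e-06). Scd had 13.7, 18.3 and 7.37 CPM in serum vesicles and 89.3, 72.5 and 47.7 CPM in serum-free vesicles, a log2 fold change of -2.36 ± 0.24 (adjusted p = 3.3e-06). For both genes each serum vesicle library lay below each serum-free one. ER chaperone genes fell in 9 of 20 cases with 1 higher (0 to 3), and among those that fell were Hspa5 (-0.63 ± 0.14, adjusted p = 0.00231) and Pdia4 (-0.72 ± 0.13, adjusted p = 0.000367).

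Of 21 tested cell cycle inhibitors and p53 targets 7 (5 to 9) were higher with serum, none was lower (0 to 2) and 14 did not pass. Cdkn1a, the inhibitor p21, had 47, 60.6 and 49 CPM in serum vesicles and 8.65, 18.9 and 10.9 CPM in serum-free vesicles. It was 4.0-fold higher without overlap (adjusted p = 3.3e-06), yet against normal cells, at 36.6, 46.8 and 35.1 CPM, serum vesicles did not pass (adjusted p = 0.0918, or 0.0347 and 0.0441 under 2 other settings). Mdm2 followed the same order, with 132, 174 and 121 CPM in serum vesicles and 69.2, 76.8 and 74.1 CPM in serum-free vesicles (0.96 ± 0.14, adjusted p = 4.95e-05). NRF2 targets were higher in 9 of 25 cases (5 to 13) and lower in 1 (1 to 2). The haem oxygenase gene Hmox1 was among the higher, with 46.8, 35.7 and 53 CPM in serum vesicles and 17.7, 28.9 and 24.2 CPM in serum-free vesicles (0.92 ± 0.18, adjusted p = 0.000865). Replication genes were lower in 11 of 31 cases (6 to 12) and higher in 2 (0 to 5), and mitosis genes lower in 10 of 32 (6 to 12) and higher in 1 (0 to 2).

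**Figure D4:**
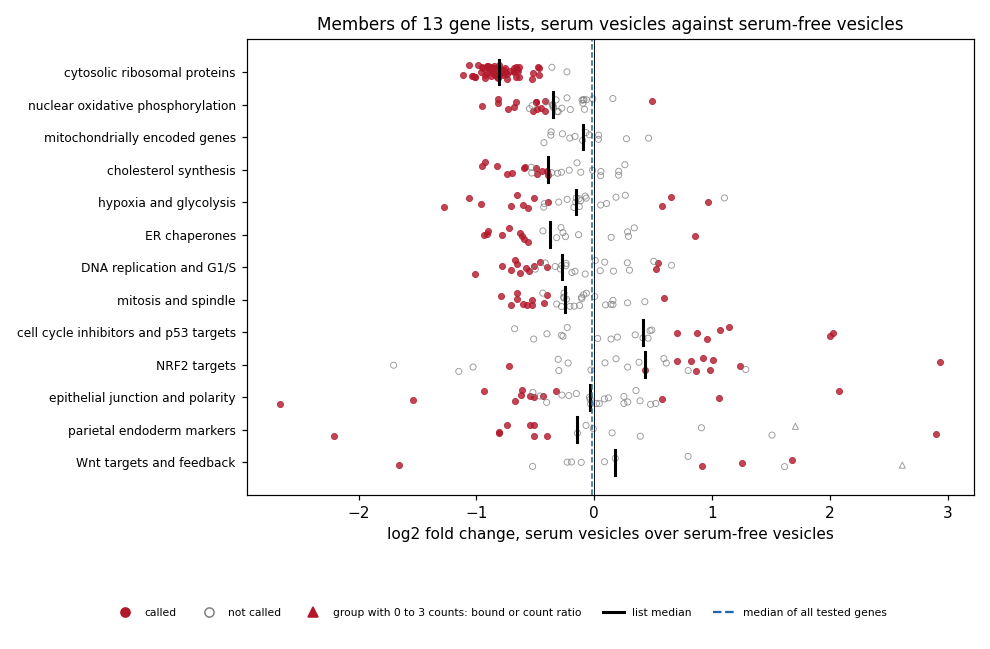
Log2 fold change of serum vesicles over serum-free vesicles (x) for the tested members of 13 gene lists (rows). Filled points passed an adjusted p of 0.05, open points did not, triangles are genes with 0 to 3 counts in a group drawn at their bound or count ratio, black bars are list medians and the dashed line is the median of all tested genes, -0.017: ribosomal protein genes gather to the left at a median of -0.81, and the mitochondrially encoded genes lie around 0 with none called.

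Wnt targets were present in both kinds of vesicle, and most did not pass between them. Of 13 tested 3 rose (1 to 4, with 1 without serum vesicle replicate 1), 1 fell (0 to 1) and 9 did not pass, and of 23 pathway components 6 rose, 1 fell (0 to 2) and 16 did not pass. Axin2 had 12.9, 9.73 and 28.3 CPM in serum vesicles and 9.03, 3.03 and 4.07 CPM in serum-free vesicles (1.68 ± 0.44, adjusted p = 0.00858), a call lost without serum vesicle replicate 3 (adjusted p = 0.0896). Tcf7 had 17, 17.7 and 13.1 CPM in serum vesicles and 7.71, 9.82 and 7.91 CPM in serum-free vesicles (0.91 ± 0.32, adjusted p = 0.0421). The Tcf7 call was lost without any 1 of the 6 vesicle libraries (adjusted p = 0.0513 to 0.114), and also with passage as a covariate, the replicate block and thinned libraries (0.0507 to 0.0826). The adjusted p for Lgr5 and Cdx2 was 0.741 and 0.644. Junction genes fell in 10 of 33 cases and rose in 3 (1 to 9). Of 6 tested feeder fibroblast markers 3 rose (1 to 5), and the 20 listed summed to 217 to 251 CPM in serum vesicles and 168 to 267 CPM in serum-free vesicles. Their part in these results was not tested. Occludin, Ocln, had 139.7, 153 and 142 CPM in serum vesicles and 223, 219 and 179 CPM in serum-free vesicles (-0.51 ± 0.13, adjusted p = 0.00632), or -0.34 with libraries scaled by their counts outside the 2 most abundant genes. Parietal endoderm genes fell in 8 of 17 cases (3 to 8) and rose in 1 (1 to 3), with Vim at 4.25, 5.0 and 3.22 CPM in serum vesicles and 12, 19.2 and 27 CPM in serum-free vesicles (-2.21 ± 0.25, adjusted p = 3.3e-06) and Sparc at 529, 640.2 and 523 CPM in serum vesicles and 985, 945 and 1043 CPM in serum-free vesicles (-0.81 ± 0.12, adjusted p = 3.78e-05). Of 17 visceral endoderm genes 2 were higher (1 to 3) and 3 lower (2 to 9), near the shares over all tested genes (11.5% higher and 12.9% lower). Cubn was lower with serum, at 15.5, 5.0 and 4.83 CPM in serum vesicles and 29.5, 42 and 26.6 CPM in serum-free vesicles (-1.92 ± 0.37, adjusted p = 0.00216), and its partner Amn higher, at 11.7, 5.84 and 8.29 CPM in serum vesicles and 1.69, 3.64 and 1.86 CPM in serum-free vesicles (1.79 ± 0.28, adjusted p = 6.85e-05).

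The largest differences between the vesicles were in single genes. Jam3, a junctional adhesion molecule, had 8.51, 13.3 and 8.06 CPM in serum vesicles and 0, 0.485 and 1.05 CPM in serum-free vesicles (4.08 ± 0.41, adjusted p = 4.53e-07). Cd80, a costimulatory ligand, had 11.4, 24.3 and 10.8 CPM in serum vesicles and 0.752, 1.82 and 2.21 CPM in serum-free vesicles (3.21 ± 0.36, adjusted p = 5.31e-06), and Ltk, a receptor tyrosine kinase, 2.58, 1.95 and 3.68 CPM in serum vesicles and 0, 0.121 and 0.582 CPM in serum-free vesicles (3.22 ± 0.57, adjusted p = 0.000284, or 4.87 without serum-free vesicle replicate 3). In none of these did the groups overlap, which was a condition of naming them. Usp9y had 51.1, 136 and 65.2 CPM in serum vesicles and 8.09, 6.91 and 2.21 CPM in serum-free vesicles (3.93 ± 0.43, adjusted p = 3.96e-05), within the limits on Y-linked genes given above. Ceacam1, a cell adhesion molecule, was lower with serum, at 5.62, 3.75 and 1.38 CPM in serum vesicles and 24.6, 50.2 and 46.5 CPM in serum-free vesicles (-3.43 ± 0.34, adjusted p = 1.33e-06). Slc22a25, an organic anion transporter family member, was at 0.608, 0.695 and 1.15 CPM in serum vesicles and spread widely over the serum-free libraries, at 44.4, 19 and 2.21 CPM (-4.74 ± 0.94, adjusted p = 0.0031). That call was lost when the spread came from these 6 libraries alone (adjusted p = 0.0629). Hist1h1a, a linker histone gene, was lower with serum, at 20.2, 21.7 and 15.2 CPM in serum vesicles and 113, 103 and 189 CPM in serum-free vesicles (-2.81 ± 0.35, adjusted p = 6.85e-05), and so was Fgf10, at 0, 0.834 and 0 CPM in serum vesicles and 0.940, 2.79 and 5.12 CPM in serum-free vesicles (-3.20 ± 0.66, adjusted p = 0.00184, or a fitted -7.54 without serum vesicle replicate 2).

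**Figure D5:**
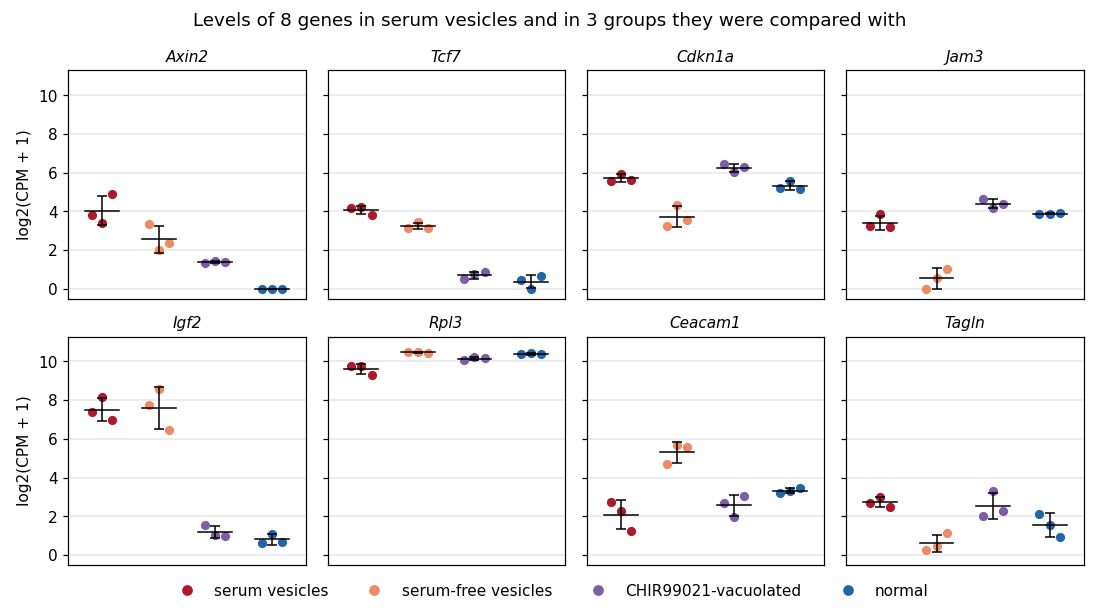
Level of 8 genes as log2(CPM + 1) in serum vesicles, serum-free vesicles, unsorted CHIR99021-vacuolated cells and normal cells, left to right, with points for libraries, a line for the mean and a bar for the SD over 3 libraries. Cdkn1a, Jam3 and Tagln were on average lowest in serum-free vesicles and Ceacam1 highest, and Igf2 was far higher in both kinds of vesicle than in vacuolated or normal cells.

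Against unsorted cells vacuolated with CHIR99021 in routine culture, serum vesicles differed in 6666 genes by edgeR's quasi-likelihood test (58% of those tested), 3489 higher (30.3%) and 3177 lower (27.6%). With the scaling outside the 2 most abundant genes 62.2% of the called genes were higher, against 52.3%. These cells had been given the same inhibitor at 0.5 µM. Dose, medium and growth form cannot be told apart here. Of 13 tested Wnt targets 8 rose and 2 fell (median 2.66). Axin2 had 12.9, 9.73 and 28.3 CPM in serum vesicles and 1.54, 1.72 and 1.64 CPM in CHIR99021-vacuolated cells (3.35 ± 0.50, adjusted p = 8.82e-06), and Lgr5 37.1, 47.8 and 42.1 CPM in serum vesicles and 7.56, 7.06 and 5.46 CPM in CHIR99021-vacuolated cells (2.66 ± 0.24, adjusted p = 3.56e-09). Both genes were thus detected in vacuolated cells, below every serum vesicle library. Lef1 had no count in CHIR99021-vacuolated cells and was at least 19.8-fold higher in serum vesicles, and Cdx2 had 2 counts there, a ratio of 256 (95% counting interval 70.4 to 2117).

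Epithelial, lysosomal and transport genes also stood higher in serum vesicles than in vacuolated cells. Junction genes rose in 27 of 33 cases with none lower (median 1.5), microvillus genes in 15 of 23 with 2 lower (median 2.26), lysosome genes in 29 of 40 with 3 lower (median 0.81), and transport genes in 15 of 21 with 4 lower (2 without serum vesicle replicate 1, median 1.89). Cdh1 had 189, 206 and 260.2 CPM in serum vesicles and 24.4, 20.7 and 29.2 CPM in CHIR99021-vacuolated cells (3.13 ± 0.20, adjusted p = 5.06e-11), and Ctsb 382, 285 and 332 CPM in serum vesicles and 36.4, 42.6 and 46.7 CPM in CHIR99021-vacuolated cells (2.99 ± 0.15, adjusted p = 8.15e-14). Krt8 was closer, with 764, 848 and 576 CPM in serum vesicles and 514, 475 and 473 CPM in CHIR99021-vacuolated cells (0.58 ± 0.17, adjusted p = 0.00445). Igf2 had 164, 281 and 126 CPM in serum vesicles and 1.96, 1.03 and 0.956 CPM in CHIR99021-vacuolated cells (7.15 ± 0.69, adjusted p = 1.52e-06). Pou5f1 was intermediate in vacuolated cells, with 1.52, 1.53 and 0.691 CPM in serum vesicles and 37.3, 33.2 and 48.7 CPM in CHIR99021-vacuolated cells (-4.90 ± 0.30, adjusted p = 9.33e-12), as was Gata6, with 13.1, 17.4 and 10.8 CPM in serum vesicles and 46.2, 50.3 and 51.1 CPM in CHIR99021-vacuolated cells (-1.82 ± 0.16, adjusted p = 8.12e-10).

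At the extremes of this comparison, Slc9a3 had 1 count over the CHIR99021-vacuolated libraries, S100g 2 and Lypd8 none, and Fcgrt, the neonatal Fc receptor that carries immunoglobulin across epithelia, had 28.3, 27.4 and 24.4 CPM in serum vesicles and 2 counts in CHIR99021-vacuolated cells, a ratio of 274 (95% counting interval 75.3 to 2265). Fgf10 had 0, 0.834 and 0 CPM in serum vesicles and 31.5, 35.5 and 37.8 CPM in CHIR99021-vacuolated cells (-6.66 ± 0.47, adjusted p = 7.58e-10, or a fitted -10.99 without serum vesicle replicate 2), and Bmper 0, 0.417 and 0.460 CPM in serum vesicles and 10.2, 8.10 and 14.2 CPM in CHIR99021-vacuolated cells (-5.22 ± 0.48, adjusted p = 2.11e-09). Hbz and Lmo1 were lower in serum vesicles by ratios of 62.1 (95% counting interval 16.9 to 518) and 55.4 (95% counting interval 18.7 to 271). Of the cell cycle inhibitors and p53 targets 5 rose (4 to 8) and 6 fell, with Cdkn1a at 47, 60.6 and 49 CPM in serum vesicles and 85.6, 64.3 and 76.7 CPM in CHIR99021-vacuolated cells (-0.53 ± 0.20, adjusted p = 0.028). That call was lost without serum vesicle replicate 1 or 3 or CHIR99021-vacuolated replicate 1 or 3 (adjusted p = 0.061 to 0.109) and with libraries scaled by their counts outside the 2 most abundant genes (0.131). Mitochondrially encoded genes rose in 12 of 13 cases (median 1.46), ER chaperone genes fell in 15 of 20, FGF and ERK feedback genes in 13 of 17, mitosis genes in 25 of 32 and ribosomal protein genes in 42 of 59. The members higher in these last 4 lists numbered 2 (1 to 3), 2 (1 to 3), 1 (1 to 2) and 3 (2 to 6).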

How the data were processed

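Per the labels' protocols, total RNA of 18 rat pXEN cell libraries in 6 groups of 3 was freed of rRNA, and libraries from a strand-keeping kit were sequenced as paired reads. Adapters were trimmed with Trimmomatic 0.38 and reads aligned to rn6 with STAR 2.6.1, the submitters' processing notes naming these tools and bcl2fastq without their settings. The authors deposited counts per gene and library in 3 columns, of which the stranded counts of the fourth column were used. These are raw, and nothing normalized was taken from the deposited files. Symbols in the first column named the genes.

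From the counts, edgeR 4.0.16 in R 4.3.3 (limma 3.58.1) fitted 1 mean per group over all 18 libraries, which leaves 12 residual degrees of freedom, after a filter by expression (minimum count 10) and TMM scaling. The quasi-likelihood test was robust, p-values were adjusted by the Benjamini-Hochberg method over all 11503 tested genes, and 0.05 was the threshold. The biological coefficient of variation was 16.1%. The script was tested on simulated data. Libraries of a group differed by more than sampling noise (chi-square per degree of freedom 6.52 to 19.3 in serum vesicles and 3.01 to 9.82 in normal cells). Where a group had no count, folds were taken against 3 counts for that group, and a fold against 1 to 3 counts has an exact 95% interval.

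Genes named are the 10 highest and 10 lowest log2 fold changes among called genes of mean log2 CPM at least 3 without overlap, the 4 smallest adjusted p in each list, the 4 highest and 4 lowest in each of the other comparisons, and a set of lineage genes. Some genes that this rule picks are not reported here. Other list members are examples chosen after their values were seen. The members and the 47 lists (1086 genes, 1037 in the files) were chosen with earlier results of these data known. Alternatives included RLE and upper-quartile scaling, other filters, DESeq2 1.42.0, passage as a covariate, thinned and unstranded counts, a replicate block and leaving out each library. Promoter sequences and Y chromosome placements come from RefSeq on GRCr8, used only for sequences and names. The vacuolated cells sorted after CHIR99021 and those grown with 14% BCS entered the fit and are not compared here.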

Additional observations from a re-analysis of the deposited data

Results flagged for a closer look

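For 77 of the 195 named and tested genes the change against normal cells differed between vesicles with and without serum, by edgeR's quasi-likelihood test of the difference itself with Benjamini-Hochberg adjustment. The values below are log2 differences, serum vesicles minus serum-free vesicles. They were positive for 33 genes and negative for 44. In 35 of the 77 the call was lost under at least 1 alternative. That held for 30 when 1 library was left out and for 28 under settings that left out none. With the spread estimated from only the groups compared, lost calls included Dab2, Thbd, Itga2 and Ccne1, at adjusted p of 0.25, 0.234, 0.179 and 0.169. Over all tested genes 24.4% differed between these groups. The named genes are not a fair sample to set against that share. Jam3, Usp9y, Ltk, Cd80, Slc22a25, Ceacam1, Fgf10 and Hist1h1a were picked by rule from genes that passed this same test. Thbd and Osgin1 were lost under 10 settings each, Tcf7 and Glb1 under 9 each and Ccne1, Dgat1, Fst and Itga2 under 7 each, with Osgin1 at an adjusted p of 0.104 by DESeq2. The calls on Epcam, Rab11a, Shmt2, Timp2 and Slc22a25 were lost under 1 setting each that left out no library (adjusted p 0.0512 to 0.0843). Scaling by the counts outside the 2 most abundant genes took Thbd to -0.23, Glb1 to -0.21, Rab11a to -0.34, Atp6v1b2 to -0.32, Ocln to -0.34 and Timp2 to -0.29. A value after a gene in the sentences on lost calls is its log2 difference in that fit.

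Among genes of the largest changes against normal cells, the difference was -1.34 for S1pr1, -2.05 for Kcne3, 0.76 for Flvcr2, 0.44 for Tmprss2, -3.20 for Fgf10 and -1.51 for Sncb. Of the Wnt targets 3 were higher with serum, 1 lower and 9 not called, and of the pathway components 6 higher, 1 lower and 16 not called. Those named were at 1.68 for Axin2, 0.91 for Tcf7, 1.13 for Fzd5, 0.76 for Lrp5 and 0.73 for Gsk3b. Endoderm genes went both ways, with -0.64 for Hnf4a, -0.81 for Sparc, -0.40 for Thbd, -1.92 for Cubn, 1.79 for Amn, -1.58 for Dab2, 1.22 for Tdh, -0.54 for Fst and -2.21 for Vim. Calls were lost without serum vesicle replicate 1 for Sncb (-1.19), Thbd (-0.43), Tcf7 (0.86) and Tdh (1.01), without replicate 2 for Tmprss2 (0.38), Sncb (-1.31), Dab2 (-1.27), Tcf7 (0.83) and Fst (-0.49), and without replicate 3 for Hnf4a (-0.53), Thbd (-0.31), Axin2 (1.11), Dab2 (-1.26), Tcf7 (1.02) and Fst (-0.52). Calls were also lost without serum-free vesicle replicate 1 for Hnf4a (-0.51), Tcf7 (0.84) and Fst (-0.50), without replicate 2 for Sncb (-1.42), Thbd (-0.33), Dab2 (-0.93), Tcf7 (1.03) and Fst (-0.56), and without replicate 3 for Tmprss2 (0.43), Thbd (-0.32), Tcf7 (0.85) and Tdh (0.93), with adjusted p of 0.0505 to 0.185 over these fits. Dab2 was at -2.56 without serum vesicle replicate 1 and Fgf10 at a fitted -7.54 without replicate 2, both still called.

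Of epithelial and transport genes, the difference was -0.62 for Epcam, -0.51 for Ocln, -1.16 for Car2, 0.55 for Fxyd3, -0.51 for Rab11a, -0.38 for Glb1, -0.50 for Atp6v1b2 and -0.75 for Prss8. The mesenchymal genes Tagln and Zeb1 stood at 3.17 and 4.23. Zeb1 had 37 counts over the serum vesicle libraries and 2 over the serum-free ones, a ratio of 22.6 (95% counting interval 5.84 to 194), so its fitted value is not exact. Matrix genes and receptors differed by -0.69 for Serpinh1, -0.66 for Itga2, 0.66 for Itga3 and -0.47 for Timp2, and the tissue factor gene F3 by 0.49. Calls were lost without serum vesicle replicate 1 for Itga3 (0.62) and F3 (0.46), without replicate 2 for Fxyd3 (0.36), Itga2 (-0.66) and F3 (0.45), and without replicate 3 for Glb1 (-0.27), Itga2 (-0.53) and Itga3 (0.65). Calls were also lost without serum-free vesicle replicate 1 for Itga2 (-0.55), Itga3 (0.64) and F3 (0.44), without replicate 2 for Glb1 (-0.40) and F3 (0.44), and without replicate 3 for Glb1 (-0.33), Atp6v1b2 (-0.43), Itga2 (-0.53) and Itga3 (0.46), with adjusted p of 0.0504 to 0.204 over these fits.

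Metabolic genes differed by -0.56 for Aldoa, 0.57 for Vegfa, 0.65 for Ddit4, -0.83 for Fdps, -2.36 for Scd, 0.55 for Fabp3, 1.08 for Aldh1a1, 0.55 for Dgat1 and -0.52 for Shmt2. The chaperone genes Pdia4, Hspa5 and Hyou1 were lower with serum, at -0.72, -0.63 and -0.56, and the NRF2 list genes Osgin1 and Abcc4 higher, at 1.00 and 0.98. The ribosomal protein genes Rps2, Rps28 and Rpl10a were lower, at -0.77, -0.66 and -0.83. Calls were lost without serum vesicle replicate 1 for Ddit4 (0.50), Aldh1a1 (1.04), Dgat1 (0.59) and Osgin1 (1.00), without replicate 2 for Fabp3 (0.38), Dgat1 (0.37) and Osgin1 (1.09), and without replicate 3 for Vegfa (0.39), Aldh1a1 (0.84), Osgin1 (0.91) and Abcc4 (0.73). Calls were also lost without serum-free vesicle replicate 1 for Fabp3 (0.42), Aldh1a1 (0.68), Dgat1 (0.39) and Osgin1 (0.90), without replicate 2 for Ddit4 (0.58) and Dgat1 (0.52), and without replicate 3 for Vegfa (0.47), Aldh1a1 (1.05), Hyou1 (-0.40), Osgin1 (0.64) and Abcc4 (0.67), with adjusted p of 0.0514 to 0.23 over these fits. Without serum-free vesicle replicate 2 Osgin1 and Aldh1a1 were still called, at 1.66 and 1.64.

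Signalling genes differed by -0.72 for Klf10, 1.10 for Il17rd, -0.97 for Bmp4, 0.45 for Bmpr2, -1.20 for Id1, 1.71 for Smad3 and 0.95 for Tead4. In the cell cycle Ccne1 was higher with serum (0.54), while Rrm2, Rrm1, Ttk, Ccnb1 and Ccna2 were lower, at -0.78, -0.66, -0.53, -0.65 and -0.79. Markers of other cell types stood at 0.50 for Gata2, 1.57 for Sox9, -2.60 for Klf1, -1.46 for Flt1 and 1.93 for Dcx. The genes named for their difference between the vesicles were Jam3 at 4.08, Usp9y at 3.93, Ltk at 3.22, Cd80 at 3.21, Slc22a25 at -4.74, Ceacam1 at -3.43 and Hist1h1a at -2.81. Calls were lost without serum vesicle replicate 1 for Klf10 (-0.60), without replicate 2 for Gata2 (0.42), and without replicate 3 for Gata2 (0.51), Bmpr2 (0.36), Smad3 (1.18), Ccne1 (0.28) and Ttk (-0.39). Calls were also lost without serum-free vesicle replicate 1 for Bmp4 (-0.71), Bmpr2 (0.38) and Ccne1 (0.54), without replicate 2 for Gata2 (0.51) and Ccne1 (0.51), and without replicate 3 for Gata2 (0.37), Bmpr2 (0.37) and Ccne1 (0.56), with adjusted p of 0.0567 to 0.339 over these fits. Ltk was at 4.87 without serum-free vesicle replicate 3 and still called.

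In 5 of the 77 the vesicles with and without serum lay on opposite sides of normal cells, and in 2, Tagln and Ceacam1, both sides passed the test. Tagln was at 1.49 in serum vesicles and -1.69 in serum-free vesicles, each against normal cells (adjusted p = 0.0126 and 0.0292). Its call in serum vesicles was lost without normal replicate 3 (adjusted p = 0.0824) and with thinned libraries (0.0711). Changes of serum-free vesicles against normal cells were not put through the alternatives. Ceacam1 was at -1.25 in serum vesicles and 2.18 in serum-free vesicles (adjusted p = 0.00592 and 3.33e-06).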

How the results depend on the processing

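The counts of differing genes against normal cells and against CHIR99021-vacuolated cells stayed within 1.5 times their main value, at 6162 to 7099 and 6046 to 6800 over other settings and at 6411 to 6916 and 6004 to 6598 when 1 library was left out. The count against serum-free vesicles moved to 1223 when the spread came from only the groups compared, and ranged from 1726 (without serum vesicle replicate 3) to 3004 when 1 library was left out. DESeq2 gave 7038, 2780 and 6683 genes for the 3 comparisons. The replicate block gave 6889, 2568 and 6574. Deviations of same-numbered serum vesicle and normal libraries correlated at -0.0116, 0.0869 and 0.0179, so the numbers were not taken to pair these groups. No such correlations were taken for the other comparisons. Serum and serum-free vesicles shared passages 32 and 35 in replicates 1 and 2, and whether those libraries are paired was not tested. Of 184 named genes called against normal cells 178 remained called under every alternative, and Lypd8, Tagln, Mfap5, Cdh5, Cd80 and Slc22a25 did not. Against serum-free vesicles 42 of 77 remained, and against CHIR99021-vacuolated cells 175 of 183. Over the lists' counts against normal cells, 71 stayed within 1.5 times and 23 did not under at least 1 alternative. No called gene picked by rule changed direction, and of those named as examples Pdzk1 did, at 0.19 with unstranded counts. Pdgfra, Hhex, Vwf and Jam3 were not called against normal cells and passed under at least 1 alternative, Jam3 at -0.74 without serum vesicle replicate 2. Some genes that were not called changed direction. Sox7 was at -0.026 with thinned libraries and at -0.142 to 0.327 when 1 library was left out, Col1a1 at -0.327 to 1.35, Cd14 at -1.68 to 1.10 and Runx1 at -0.018 to 0.806, and the cause was not tested. The smallest library held 1919117 counts outside the dominant pair, which limits genes of few counts.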
